A study of Mus musculus with 3 samples.

Results

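Memory-type CD8 T cells of mouse peripheral blood were picked out by their transcript counts alone, and 1169 of the 22688 barcodes with at least 200 genes met the rule. The 3 libraries, replicates 1, 2 and 3, gave 764, 217 and 188 of them. Counts are of UMIs, molecular tags that mark single captured molecules. A cell had to hold 4 or more UMIs of the T-cell receptor complex (Cd3e, Cd3d, Cd3g, Trac and Trbc2 together), 2 or fewer of the B-cell genes Cd79a, Cd79b and Ms4a1, 1 or none of the myeloid growth factor receptors Csf1r and Csf3r, 2 or more of Cd8a and Cd8b1, and none of Cd4. That left 2993 CD8-gated cells. Those with 3 or more UMIs of Ccl5, Cxcr3 and Il2rb together were called memory-type. The comparison cells were the 1486 naive-type cells of the same gate, with a sum of 1 or less, and 338 cells with a sum of 2 were in neither class.

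All 3 libraries came from untreated mice whose genotype field reads only "Male", and the strain is not given in the sources used here. Replicate 1 was from a mouse sample of 8 weeks, replicate 2 of 9 weeks and replicate 3 of 10 weeks, and the effects of age and of the single library cannot be told apart. Erythrocytes were lysed, and leukocytes were sorted after nuclear staining, fixed and profiled with gene-specific probes. The labels do not say whether the libraries came from separate animals, and p-values then measure only the spread between these samples, which may be technical.

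Memory CD8 T cells are antigen-experienced or cytokine-expanded killer lymphocytes that respond faster than naive cells. Central memory cells keep the chemokine receptor Ccr7, with which they enter lymph nodes, whereas effector memory cells lack it and carry cytotoxic granules. Il2rb encodes the receptor chain shared by interleukin-2 and interleukin-15, Cxcr3 encodes a receptor for interferon-induced chemokines, and Ccl5 encodes a chemokine that memory CD8 T cells hold ready. The T-box factors T-bet (Tbx21) and Eomes drive the memory and effector programs, and Lef1 and Tcf7 encode factors that hold T cells in a naive or stem-like state.

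Library totals ranged from 19591648 to 45718031 UMIs. Memory-type cells were deeper than naive-type cells in every library, with median UMI counts of 4978.5, 5047 and 4303.5 against 3809, 3879 and 3695. The rule counts raw UMIs, so deeper cells reach a sum of 3 more easily. How much of the depth gap comes from the rule was not tested. The memory-type sums of the libraries differed by more than independent draws of UMIs would, with chi-squares per degree of freedom of 2.62 to 8.10 over the pairs. UMIs of 1 cell are not independent, so this cannot tell differences between libraries from the draw of cells. Only 1 memory-type barcode was shared, between replicates 2 and 3. Doublet calling marked 20 of the 1169 members. Summed erythroid markers (8 genes) ran from 597 to 17595 CPM in the members of the libraries (UMI counts scaled to a common library size, as below) and from 1169 to 21852 CPM in naive-type cells. None of those 8 genes was at 0, and 3 of 7 tested were lower in memory-type cells, against 6.29% of all genes tested. Their part in the results was not tested.

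Promoter sequences are shown for 4 genes that were higher in memory-type cells and held a match to a T-box or RUNX motif, since T-box and RUNX factors act in these cells. Each run is the 250 bases before the gene's start in the RefSeq table (build GRCm38.p6), 5′ to 3′ on the gene's strand, with the motif match in capitals. Nkg7 encodes a granule protein (chr7:43436888-43437137, plus strand), and Samd3 encodes a protein with a SAM domain (chr10:26229457-26229706, plus strand). Gzma encodes granzyme A (chr13:113100982-113101231, minus strand), and Gpr15 encodes a gut homing receptor (chr16:58718873-58719122, minus strand).
Nkg7: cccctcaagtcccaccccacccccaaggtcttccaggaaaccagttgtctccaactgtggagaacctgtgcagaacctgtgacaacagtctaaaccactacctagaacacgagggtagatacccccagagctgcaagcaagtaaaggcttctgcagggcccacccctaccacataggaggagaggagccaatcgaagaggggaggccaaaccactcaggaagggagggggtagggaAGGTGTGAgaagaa
Samd3: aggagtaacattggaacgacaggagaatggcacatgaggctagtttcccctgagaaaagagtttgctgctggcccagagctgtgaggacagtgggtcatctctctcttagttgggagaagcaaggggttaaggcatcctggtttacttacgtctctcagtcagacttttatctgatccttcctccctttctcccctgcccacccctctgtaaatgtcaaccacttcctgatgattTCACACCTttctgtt
Gzma: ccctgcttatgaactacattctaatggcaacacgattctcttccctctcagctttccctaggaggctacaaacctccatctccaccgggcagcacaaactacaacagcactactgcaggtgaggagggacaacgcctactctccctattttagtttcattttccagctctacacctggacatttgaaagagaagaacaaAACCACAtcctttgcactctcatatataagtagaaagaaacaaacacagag
Gpr15: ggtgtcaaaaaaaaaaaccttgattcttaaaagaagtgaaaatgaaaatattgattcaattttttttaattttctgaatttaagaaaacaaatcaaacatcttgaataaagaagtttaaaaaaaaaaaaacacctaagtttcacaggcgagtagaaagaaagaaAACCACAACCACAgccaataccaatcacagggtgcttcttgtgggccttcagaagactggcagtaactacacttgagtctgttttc
The T-box motif was TCACACCT or its reverse complement AGGTGTGA, the RUNX motif TGTGGTT or AACCACA, and a TCF/LEF motif CTTTGATC or GATCAAAG, each searched on both strands. In Nkg7 and Samd3 the T-box match began 14 and 15 bases before the start, and in Gpr15 a pair of RUNX matches overlapped by 1 base. The windows counted next also hold bases after the gene's start, so they are longer than the runs shown. Of 32851 promoter windows, 1.28% held the T-box, 5.27% the RUNX and 0.938% the TCF/LEF motif. Among the windows of the 7385 tested genes that matched the table, these shares were 0.846%, 3.78% and 0.645%. Windows of the 744 matched genes that were higher in memory-type cells held them at 1.02%, 5.62% and 0.511%. For the 452 matched genes that were lower, the shares were 0.487%, 5.68% and 0.487%. The 4 genes shown were picked for having a match. Of 87 matched genes named in this report's 2 comparisons, 2 held the T-box, 11 the RUNX and 0 the TCF/LEF motif. These letter counts are a description and show no binding.

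The genes that chose the cells are given first, without a test. Ccl5 (ENSMUSG00000035042) stood at 5740, 6709 and 5067 CPM in the memory-type sums of replicates 1, 2 and 3 and at 10.4, 9.55 and 12.7 CPM in the naive-type sums. CPM are counts of UMIs scaled to a common class total, and for class sums they are scaled by TMM, edgeR's correction for composition. Cxcr3 (ENSMUSG00000050232) stood at 384 ± 28.6 CPM against 5.74 ± 0.747 (mean ± SD, n = 3), and Il2rb (ENSMUSG00000068227) at 1298 ± 232 against 81.4 ± 4.77. Among the members, 96.8% held a UMI of Il2rb, 74.2% of Ccl5 and 67.8% of Cxcr3, and 645 cells (55.2%) held all 3. Per library, a Ccl5 UMI was found in 74.5% ± 1.71 of members, against 4.19% ± 0.604 of naive-type cells and 4.27% ± 1.22 of B-gated cells, which should lack it (median depths 4916, 3789.5 and 3168 UMIs). With each cell thinned to 2000 UMIs, and shallower cells left out (15, 79 and 626 cells), those shares were 67.3%, 2.62% and 2.95%.

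The 3 further markers that came with the label were also higher in the members. Gzmm, a granzyme, stood at 117 ± 13.4 CPM against 2.03 ± 1.22 in naive-type cells. Ctsw, a cathepsin of cytotoxic lymphocytes, stood at 785 ± 44.9 against 417 ± 24.3, and Ifitm10 at 362 ± 29.9 against 66.3 ± 5.28. No library of 1 class overlapped the other class for any of these 3, which was also so for 26.6% of the 9155 genes tested below. Only these 3 of the 6 markers bear on the label, since the other 3 chose the cells. Ctsw and Ifitm10 are not particular to the members. In the NK-gated cells described below they stood higher, at 1272 ± 98.8 and 726 ± 111 CPM. Gzmm stood lower there, at 13.9 ± 2.07 CPM.

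Memory-type cells made up 38.4% ± 4.36 of the CD8 gate (SD, n = 3). The share was 40.0% in replicate 1 (exact 95% binomial interval 37.8% to 42.2%), 41.7% in replicate 2 (37.5% to 46.1%) and 33.5% in replicate 3 (29.6% to 37.5%). The intervals cover counting error only. The share depended on the gate, since a sum of 2 or more gave 49.6% and a UMI of all 3 genes gave 21.4%. After thinning to 2000 UMIs the gate took 27.9%, against 39.3% of the unthinned cells of that depth. Of all cells, memory-type cells were 6.94%, 4.30% and 2.83% in replicates 1, 2 and 3.

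**Figure D1:**
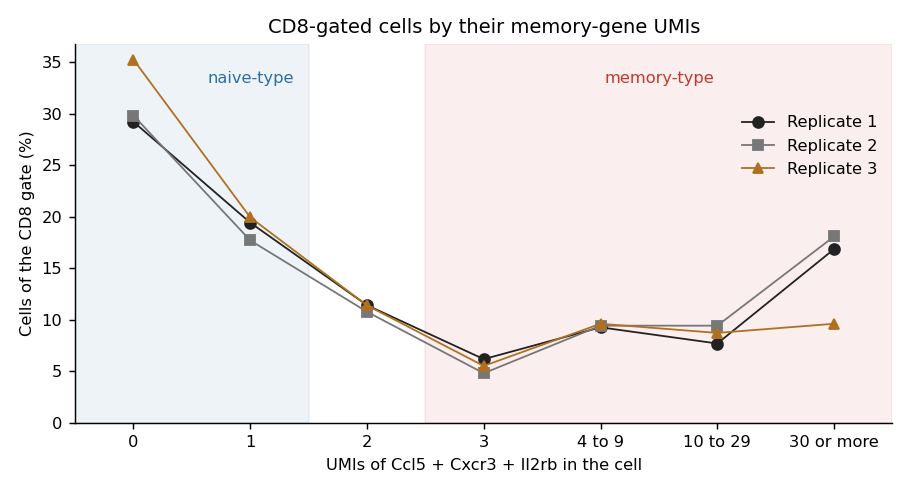
Share of CD8-gated cells (y axis, percent) by the UMI sum of Ccl5, Cxcr3 and Il2rb (x axis), 1 line per library. Bins from 4 upwards span several sums, the bin of 30 or more holds a smaller share in replicate 3 than in replicates 1 and 2, and shading marks the naive-type and memory-type ranges.

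The sum had no empty range at the threshold of 3. The 174 members just inside it, with a sum of 3, had levels close to those of the cells just outside, with a sum of 2. In plain CPM, Cd44 stood at 25.7 ± 6.51 in the former and 38.3 ± 16.1 in the latter, Itgae at 187 ± 71.1 and 178 ± 38.6, and Ccr9 at 77.7 ± 20.6 and 77.0 ± 26.6. Tbx21 stood at 11.8 ± 11.9 and 9.50 ± 9.46. For these 4 genes the means on both sides of the threshold lay within 1 SD of the cells outside it, and the members at a sum of 3 are 14.9% of the class. Their Cd44, Itgae and Ccr7 levels were also near the naive-type levels given below, while mean Ccr9 was lower and mean Tbx21 higher. The class sums below include these naive-like members.

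Memory-type cells differed from naive-type cells in genes of killing, homing, cytokine response and the naive state. Of 9155 genes tested in edgeR on counts summed per library and class, 961 (10.5%) were higher and 576 (6.29%) lower in memory-type cells at an adjusted p under 0.05. The counts of called genes per list in this comparison, here and below, are to be read beside these shares. Of the killer receptors, 19 of 23 tested were higher and none lower, and of the cytotoxic effectors 18 of 23 were higher and none lower, while 18 of 27 naive T cell genes were lower. With plain library totals in place of TMM the split was 816 higher and 746 lower. Without replicate 1, which holds most of the members, 408 genes were higher and 256 lower, and with cells paired within 2% of their UMI totals 457 and 289.

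**Figure D2:**
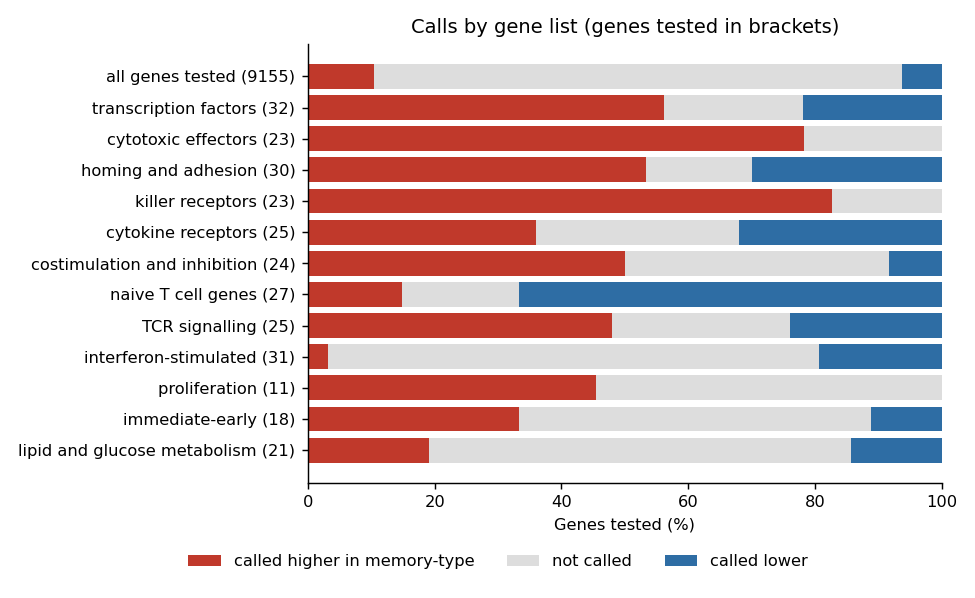
Share of tested genes (x axis, percent) called higher, called lower or not called in memory-type against naive-type cells, 1 bar per gene list with the number tested in brackets. Killer receptors and cytotoxic effectors have 19 and 18 of 23 genes called higher, against 961 of 9155 over all genes.

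**Figure D3:**
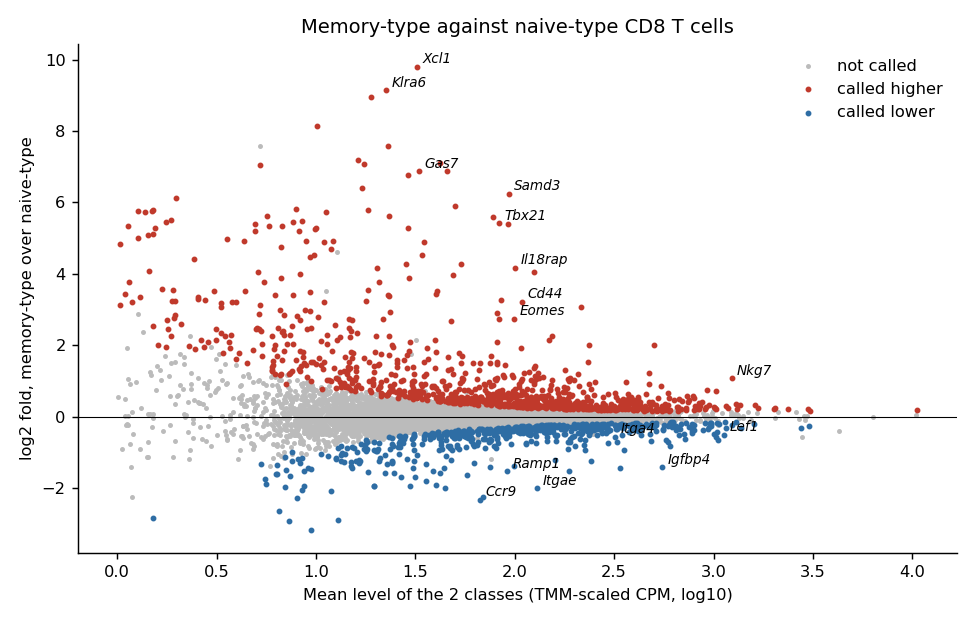
Log2 fold of memory-type over naive-type cells (y axis) by the mean TMM-scaled CPM of both classes (x axis, log10), 1 point per gene, with called genes coloured. Xcl1 and Klra6 had no UMI in naive-type cells, so their fitted folds depend on the prior count.

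Among 32 transcription factors tested, 18 were higher and 7 lower, with a median log2 fold of 0.50 (0.02 over all genes). Tbx21, which encodes T-bet, stood at 172, 183 and 133 CPM in memory-type and 3.28, 6.37 and 3.40 CPM in naive-type cells. The classes did not overlap, and the log2 fold was 5.41 ± 0.18 (SE; edgeR adjusted p = 5.00e-30). Eomes stood at 159, 187 and 166 CPM against 22.7, 32.9 and 25.5, again with no overlap (log2 2.74 ± 0.13). Its fold was 2.11 in cells paired by UMI total. Zeb2, which encodes a factor of terminal effector cells, stood at 37.7 ± 7.85 against 5.57 ± 0.336 CPM (log2 2.75 ± 0.22). Runx2, which is in no list, rose from 6.38 ± 4.73 to 91.4 ± 15.8 CPM (log2 3.97 ± 0.20). Id3, listed among the naive genes and a marker of long-lived memory precursors, rose from 45.7 ± 17.7 to 132 ± 29.4 CPM (log2 1.43 ± 0.19), a call that DESeq2's Wald test did not give (adjusted p = 0.652).

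The factors of the naive state were lower by less. Lef1 stood at 896, 912 and 986 CPM against 1284, 1311 and 1399 (log2 -0.52 ± 0.05), with no overlap. Bach2, a repressor of effector genes, stood at 163, 169 and 172 CPM against 257, 245 and 271 (log2 -0.63 ± 0.07). Klf2, which controls exit from tissue, fell from 3044 ± 476 to 2452 ± 363 CPM (log2 -0.32 ± 0.05). Tcf7 stood at 937, 986 and 970 CPM against 1109, 1164 and 1141 (log2 -0.24 ± 0.09) and missed the threshold (edgeR adjusted p = 0.108), although it passed without replicate 3 (adjusted p = 0.00123), with no count filter (0.000145) and without cells with an innate receptor UMI (0.0416).

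**Figure D4:**
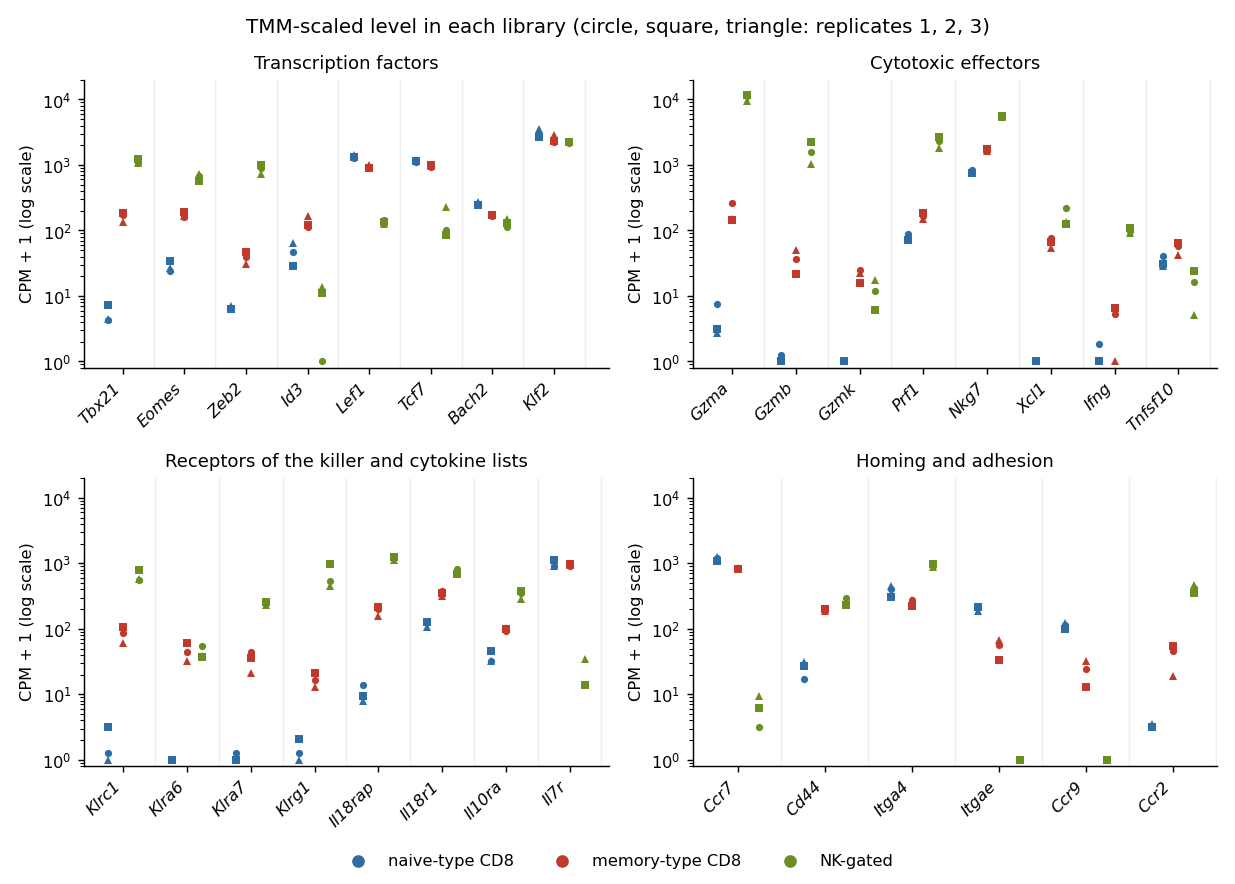
TMM-scaled CPM plus 1 (y axis, log scale) of named genes in each library (circle, square and triangle for replicates 1, 2 and 3) in naive-type, memory-type and NK-gated cells. Memory-type Tbx21 at 133 to 183 CPM lies between naive-type cells at 3.28 to 6.37 and NK-gated cells at 1055 to 1224, while Ccr7 and Il7r lie near the naive-type level.

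Homing and adhesion genes moved both ways, with 16 of 30 tested higher and 9 lower, beside 10.5% and 6.29% over all genes. Cd44, the hyaluronan receptor and classical mark of antigen experience, stood at 193, 199 and 185 CPM in memory-type and 16.1, 26.5 and 29.7 in naive-type cells. All memory-type libraries were above all naive-type libraries (log2 3.21 ± 0.14). Ccr2, a receptor of inflammatory recruitment that monocytes also express, stood at 44.3, 52.8 and 17.8 CPM against 2.18, 2.12 and 2.55 (log2 4.16 ± 0.38), and 3.32 in cells paired by UMI total. Summed markers of monocytes (9 genes) ran from 233 to 291 CPM in memory-type and from 195 to 229 in naive-type cells, with Cd300e and Fcgr1 at 0 in the former. Of 5 monocyte markers tested 1 was higher, beside 10.5% of all genes. Ccr2 is itself on the monocyte list, so the summed level includes it and is no separate measurement. The part of monocyte genes in the result was not tested.

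Itgae and Ccr9 were lower, and Gpr15 was higher. Itgae, the integrin chain CD103 that binds E-cadherin, stood at 56.0, 32.4 and 66.5 CPM against 220, 214 and 187 in naive-type cells (log2 -2.01 ± 0.12). Ccr9, the small intestinal homing receptor, stood at 23.5, 12.0 and 30.9 CPM against 115, 97.6 and 121 (log2 -2.32 ± 0.14). No library overlapped for either gene. In cells with a UMI of all 3 choosing genes these folds were -3.82 and -4.98. Itga4, the alpha4 integrin chain, fell from 384 ± 69.4 to 257 ± 27.4 CPM (log2 -0.57 ± 0.08), while Gpr15, the gut homing receptor, rose from 1.45 ± 1.67 to 68.4 ± 13.4 CPM (log2 4.89 ± 0.29), with 6.71 without replicate 1.

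Ccr7, the lymph node homing receptor, stood at 852, 816 and 859 CPM against 1191, 1097 and 1226, with no overlap (log2 -0.48 ± 0.05). In thinned cells, a Cd44 UMI was found in 30.6% of memory-type and 4.83% of naive-type cells, against 50.8% and 8.29% unthinned.

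Killer receptors, the lectin-like and Ly49 receptors that NK cells use to sense class I molecules and stress ligands, had a median log2 fold of 4.93, or 3.36 with the 5 genes that had no naive-type UMI set to a bound. Klra6, a Ly49 receptor, had 267 UMIs in memory-type cells and none in naive-type cells, at least 86.9-fold higher against a floor of 3 UMIs over the group. Klrc1, which encodes NKG2A, stood at 84.0, 106 and 60.6 CPM against 0.273, 2.12 and 0, a pooled ratio of 163 (exact 95% interval 55.5 to 794, 501 against 3 UMIs). Klra7 had 225 against 1 UMI, a ratio of 220 (39.0 to 8718). The intervals of pooled ratios, here and below, cover counting error only. They leave out the spread between cells and between libraries. Ly49 genes are near-identical copies, so their probes could share signal, and single Klra genes are uncertain. Klrg1, the receptor of short-lived effector cells, stood at 16.0 ± 4.26 CPM, with 95 against 2 UMIs. Without the replicate block, it missed the threshold (adjusted p = 0.0528).

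Klrc1 and Klra6 were seen in a minority of the members. A Klrc1 UMI was found in 14.9% of memory-type cells per library, 0.171% of naive-type cells and 0.254% of B-gated cells, and a Klra6 UMI in 10.6% of memory-type cells. The 58 members with most Klrc1 held 62.3% of its UMIs. Among markers of other lymphocytes, of 14 NK markers tested, 11 were higher, with a summed level of 592 to 1020 against 127 to 152 CPM in naive-type cells and 27438 to 30917 in NK-gated cells, and none of the 14 was at 0 in memory-type cells. Of these 14, 13 are also members of the lists described here, so they are no separate measurement. Of 4 gamma-delta T markers tested, 3 were higher (97.4 to 150 against 17.0 to 53.2 CPM for 9 genes, with Sox13 and Il23r among the genes at 0 in memory-type cells), and the part of both lists in the results was not tested. Of 3 NKT and MAIT markers tested, 1 was higher and 1 lower (47.5 to 51.3 against 57.8 to 70.0 CPM for 6 genes, with Slc7a10 and Il23r among those at 0), and of 6 B markers tested, 2 were higher and 1 lower (1001 to 1282 against 1107 to 1372 CPM for 10 genes, none at 0). Of the members, 13.9% held a UMI of Trdc, Tcrg-C1, Tcrg-C2, Tcrg-C4, Zbtb16, Ncr1 or Klrb1c, against 4.71% of naive-type cells. With those cells left out of both classes, Klrc1 kept a log2 fold of 6.52 (7.12 with them, 6.19 without replicate 1 and 8.17 without replicate 2), and 779 genes were higher and 598 lower.

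Cytotoxic effectors had a median log2 fold of 1.03. Nkg7, the granule protein whose promoter is shown above, stood at 1673, 1724 and 1627 CPM against 835, 753 and 785 (log2 1.07 ± 0.06). Prf1, the pore former perforin, stood at 164, 182 and 148 CPM against 86.0, 70.0 and 73.1 (log2 1.03 ± 0.10). The classes did not overlap for either gene. Xcl1, the chemokine that attracts cross-presenting dendritic cells, stood at 75.3, 65.8 and 53.5 CPM and had no UMI in naive-type cells, at least 136-fold higher. Gzmk had 131 UMIs in memory-type and none in naive-type cells, at least 42.6-fold higher.

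Gzma, Gzmb and Gzmk were held by few cells, 67, 51 and 40 of the 1169 members with a UMI, while Gzmm had a UMI in 270. Gzmb, the main killing protease of effector cells, had 205 UMIs in memory-type cells against 1, a ratio of 200 (35.5 to 7947). Its fitted log2 fold was 7.07 (edgeR adjusted p = 0.0191). The call was lost while the fold stayed high without replicate 1 (7.59, adjusted p = 0.483), without doublets (6.52, 0.0907), in the stricter gate (8.64, 0.192) and without cells with an innate receptor UMI (6.41, 0.108), and in cells paired by UMI total it was kept (5.43, 4.18e-14). The 58 members with most Gzma held 99.3% of its UMIs. Gzma stood at 257, 142 and 147 CPM against 6.55, 2.12 and 1.70. B-gated cells held it at 136, 41.5 and 18.6 plain CPM in replicates 1, 2 and 3. The members' Gzma level includes called doublets, and without them it lay further below NK-gated cells, as given below. The part of other cells' transcripts in these levels was not tested. Ifng, the interferon gamma gene, had 23 against 3 UMIs and stood at 0 in replicate 3 (log2 2.70). Its call was lost without replicate 1 (log2 4.27, adjusted p = 0.136), without doublets (1.81, 0.137), without cells with an innate receptor UMI (1.54, 0.267) and in cells paired by UMI total (1.32, 0.485).

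Among 25 cytokine receptor genes tested, 9 were higher and 8 lower, beside 10.5% higher and 6.29% lower over all genes. Both chains of the interleukin-18 receptor, which lets memory cells answer inflammation without antigen, were higher. Il18rap stood at 203, 216 and 158 CPM against 12.8, 8.49 and 6.80 (log2 4.17 ± 0.14), and Il18r1 at 379, 355 and 312 against 131, 124 and 106 (log2 1.54 ± 0.07). Neither pair of classes overlapped. Il10ra, the interleukin-10 receptor chain, rose from 36.1 ± 8.28 to 98.1 ± 4.64 CPM (log2 1.50 ± 0.13). Tgfbr3, a co-receptor of TGF-beta, fell from 86.6 ± 6.76 to 28.4 ± 12.5 CPM (log2 -1.63 ± 0.15), and Ifngr2 from 61.1 ± 14.3 to 23.1 ± 4.40 CPM (log2 -1.57 ± 0.17). Il7r, the survival receptor of resting T cells, stood at 898, 991 and 947 CPM against 899, 1121 and 915, with overlap (log2 -0.04 ± 0.05, edgeR adjusted p = 0.710).

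Of 27 naive T cell genes, 18 were lower and 4 higher. Igfbp4, a secreted growth factor binding protein typical of naive CD8 T cells, stood at 281, 276 and 368 CPM against 808, 824 and 762 (log2 -1.42 ± 0.07), and -3.16 in cells with all 3 choosing genes. Ramp1, a receptor subunit for neuropeptides, fell from 135 ± 21.6 to 48.5 ± 8.43 CPM (log2 -1.54 ± 0.11). Of the 4 that rose, Txk, a T-cell kinase, went from 349 ± 21.0 to 469 ± 25.4 CPM (log2 0.39 ± 0.06) and Nsg2 from 361 ± 19.6 to 458 ± 33.5 CPM (log2 0.34 ± 0.06). The list names cells at rest, and its members did not all move 1 way.

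Among 25 genes of T-cell receptor signalling, 12 were higher and 6 lower, by small steps, beside 10.5% higher and 6.29% lower over all genes. Sh2d2a, a T-cell adaptor, rose from 166 ± 9.90 to 274 ± 21.0 CPM (log2 0.69 ± 0.07) and Nfatc2, a calcium-driven factor, from 156 ± 16.3 to 226 ± 11.4 CPM (log2 0.57 ± 0.08). The CD3 zeta gene Cd247 fell from 739 ± 31.6 to 558 ± 27.5 CPM (log2 -0.39 ± 0.06). Of 24 costimulatory and inhibitory genes, 12 were higher and 2 lower, to be read beside the same shares. Slamf7, a self-binding receptor of cytotoxic cells, stood at 67.3, 79.7 and 47.5 CPM against 2.18, 2.12 and 5.10 (log2 4.53 ± 0.24), and at 3.89 in cells paired by UMI total. Slamf6, a related receptor of less differentiated cells, fell from 255 ± 29.6 to 180 ± 16.5 CPM (log2 -0.47 ± 0.08), a call that DESeq2 did not give (adjusted p = 0.0724). Cd27 stood at 384 ± 24.0 against 335 ± 21.9 CPM, a call lost without replicate 1 (adjusted p = 0.421) or 3 (0.114).

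Of 31 interferon-stimulated genes tested, 1 was higher and 6 were lower, against 10.5% higher and 6.29% lower over all genes. Ifi27l2a, which interferon induces strongly, fell from 227 ± 38.5 to 160 ± 34.2 CPM (log2 -0.57 ± 0.08). Of 11 proliferation genes tested, 5 were higher and none lower. Mki67, which marks cycling cells, stood at 17.3, 7.41 and 11.9 CPM against 0.546, 2.12 and 0.850 (log2 3.88 ± 0.57, and 4.52 without replicate 2), from 27 of 1169 members with a UMI. Stmn1, a tubulin regulator, stood at 72.0, 38.0 and 48.7 CPM against 19.4, 20.2 and 20.4 (log2 1.62 ± 0.17), a call lost in cells paired by UMI total (log2 0.65, adjusted p = 0.122).

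Outside the lists, the largest rises included Samd3, which stood at 196, 198 and 157 CPM against 1.64, 4.24 and 3.40 (log2 6.23 ± 0.19, and 5.48 without replicate 1). Arl4d, a small GTPase, rose from 1.50 ± 1.74 to 56.8 ± 3.38 CPM (log2 5.29 ± 0.28, and 5.95 without replicate 3). S100a4, a calcium-binding protein of effector cells, stood at 213, 186 and 57.0 CPM against 3.00, 4.24 and 4.25 (log2 5.60 ± 0.54), and 4.70 without replicate 1. Its level was lowest in replicate 3, and naive-type libraries stayed below 5 CPM. The largest falls outside the lists included Slc6a19, an amino acid transporter, from 114 ± 16.2 to 23.7 ± 5.97 CPM (log2 -2.26 ± 0.14, and -1.64 in cells paired by UMI total), and Rgcc, a cell cycle regulator, from 280 ± 17.0 to 96.0 ± 17.4 CPM (log2 -1.52 ± 0.08).

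The gate and the tested genes come from the same cells, so these tests describe how other genes go with the 3 choosing genes. The p-values rest on 3 libraries, of which replicate 1 gave 764 of the 1169 cells.

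Among the members, levels changed with the sum of the choosing genes, which is a description of 1 gradient and has no test. In plain CPM, Cd44 rose from 25.7 ± 6.51 at a sum of 3 to 114 ± 15.5 at 4 to 9, 246 ± 30.8 at 10 to 29 and 261 ± 8.35 at 30 or more. Tbx21 stood at 11.8 ± 11.9, 51.4 ± 13.7, 138 ± 31.1 and 290 ± 13.3 over the same ranges. Lef1 went the other way, from 1493 ± 50.2 to 640 ± 7.38, and Ccr7 from 1165 ± 101 to 584 ± 27.8. Itgae stood at 187 ± 71.1 at a sum of 3 and 14.7 ± 4.03 at 30 or more, and Ccr9 at 77.7 ± 20.6 and 2.91 ± 3.51. Itga4 did not follow 1 direction, at 349 ± 24.5, 276 ± 41.8, 183 ± 57.1 and 262 ± 31.5. Klrc1 stood at 2.60 ± 2.31 at 4 to 9, 31.0 ± 20.1 at 10 to 29 and 184 ± 21.4 at 30 or more, and Gzma at 7.65 ± 9.96 at 10 to 29 and 447 ± 143 at 30 or more. Gzmm was spread more widely, at 22.7 ± 20.3, 92.7 ± 30.3 and 221 ± 8.22 over the last 3 ranges.

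**Figure D5:**
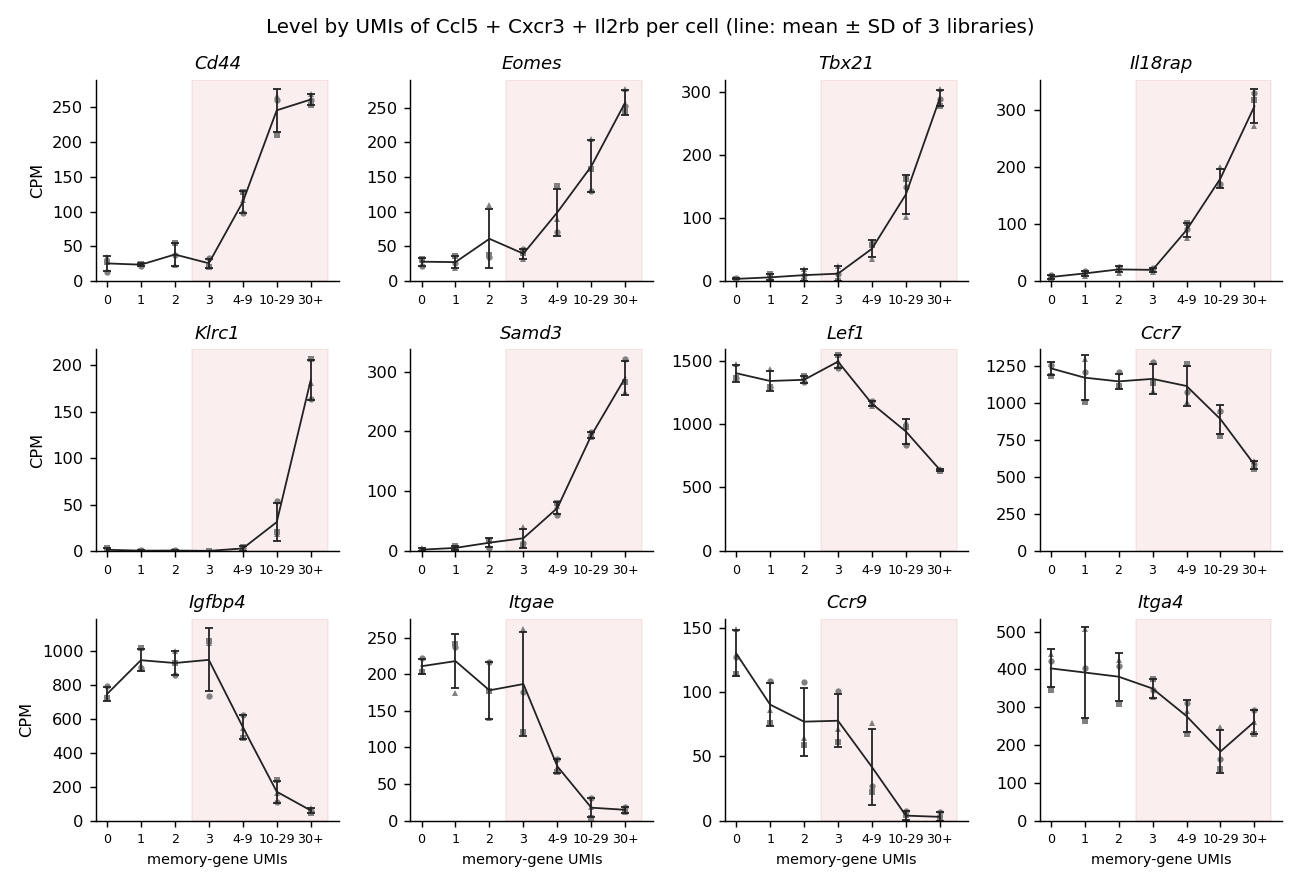
Plain CPM (y axis) of 12 genes by the UMI sum of Ccl5, Cxcr3 and Il2rb (x axis), with points for the libraries and a line for their mean ± SD, and memory-type sums shaded. Cd44 climbs from 25.7 at a sum of 3 to 261 at 30 or more and Itgae drops from 187 to 14.7.

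Members without a Ccl5 UMI (302 cells) had lower levels of Cd44, Tbx21 and Il18rap than the other members, given without a test. Cd44 stood at 97.7 ± 13.8 plain CPM in them, 156 ± 6.94 in members with 1 to 9 Ccl5 UMIs and 260 ± 11.4 in the 585 with 10 or more. Tbx21 stood at 38.5 ± 21.3, 105 ± 22.6 and 255 ± 9.70, and Il18rap at 59.5 ± 5.24, 112 ± 4.53 and 295 ± 26.0. Igfbp4 stood at 798 ± 109, near the naive-type level given above, 315 ± 5.65 and 67.7 ± 8.93. Other genes did not follow this order: Itga4 stood at 256 ± 37.1, 269 ± 21.7 and 257 ± 38.1, and S100a4 at 240 ± 271, 92.2 ± 145 and 150.4 ± 57.7.

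Set beside NK-gated cells (739 cells with NK receptor Ncr1 or Klrb1c and 1 or fewer T-cell receptor UMIs), the members had lower levels of most cytotoxic effectors and killer receptors and higher levels of most naive T cell genes. Of 9153 genes tested in the same edgeR fit, 2463 (26.9%) were higher and 2212 (24.2%) lower in memory-type cells, and without replicate 1 these counts were 1391 and 1315. Both comparisons share the memory-type sums. Of 23 cytotoxic effectors 4 were higher and 17 lower, of 21 killer receptors 1 was higher and 17 lower, and of 27 naive T cell genes 24 were higher and 2 lower. Homing and adhesion genes went both ways, with 13 of 30 higher and 14 lower. The NK gate chose cells with few T-cell receptor UMIs, so T-cell genes in this contrast are near the rule and are given as a description.

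Tbx21 stood at 1055, 1224 and 1077 CPM in NK-gated cells, against 172, 183 and 133 in memory-type cells (log2 -2.71 ± 0.07), and Eomes at 657 ± 85.3 against 171 ± 14.7 (log2 -1.98 ± 0.08). Gzma stood at 11132, 11517 and 9313 CPM against 257, 142 and 147 (log2 -5.78 ± 0.18), and -6.72 without doublets. Prf1 stood at 2276 ± 448 against 165 ± 16.5 CPM (log2 -3.81 ± 0.07). The classes did not overlap for any of these 4 genes, which was also so for 50.2% of the 9153 genes tested. Irf8, a factor that NK cells share with myeloid cells, stood at 963 ± 285 against 23.6 ± 12.3 CPM (log2 -5.11 ± 0.15), and -5.84 without doublets. Klrb1b stood at 431 ± 59.1 CPM against 2.17 ± 3.75, with no memory-type UMI in replicates 2 and 3.

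Some genes went against that order. Gzmk stood at 20.2 ± 4.84 CPM in memory-type and 10.9 ± 5.78 in NK-gated cells (log2 1.07 ± 0.37), a call lost without replicate 1 (adjusted p = 0.396). Tnfsf10, the death ligand TRAIL, stood at 57.0, 63.0 and 41.6 CPM against 15.2, 23.1 and 4.17, with no overlap (log2 1.88 ± 0.23). Gpr15 had 410 UMIs in memory-type cells and 1 in NK-gated cells, a ratio of 171 (30.6 to 6780). Cd44 was lower in memory-type cells by a small step (log2 -0.49 ± 0.10), a call lost without replicate 1 (adjusted p = 0.160).

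Genes of resting T cells were higher in the members than in NK-gated cells, which were chosen for few T-cell receptor UMIs. Il7r stood at 945 ± 46.5 CPM against 19.9 ± 11.7 (log2 5.88 ± 0.14) and Ccr7 at 842 ± 22.9 against 5.22 ± 3.09 (log2 7.99 ± 0.17, and 6.99 without replicate 1). Dapl1, a gene of naive and early memory T cells, had 2082 UMIs in memory-type cells and none in NK-gated cells, at least 290-fold higher, and stood at 353 ± 5.39 CPM against 506 ± 44.9 in naive-type cells. Ass1, an enzyme of arginine synthesis, had 819 UMIs against none, at least 114-fold higher, and Tlr1, a receptor for bacterial lipopeptides, had 522 against none, at least 72.7-fold higher. Neither is particular to the members. In thinned cells, a Tlr1 UMI was found in 17.6% of memory-type and 22.8% of naive-type cells, and an Ass1 UMI in 23.8% and 18.6%. Of 31 interferon-stimulated genes, 20 were higher in memory-type than in NK-gated cells and none lower, beside 26.9% and 24.2% of all genes tested. Ifi27l2a stood at 160 ± 34.2 against 4.69 ± 5.20 CPM (log2 5.11 ± 0.24).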

How the data were processed

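Leukocytes of 3 untreated blood samples were profiled with a fixed-RNA probe kit. The authors deposited raw UMI counts per gene and barcode, not normalized, made with Cell Ranger 7.1.0 per the file headers, while the deposited barcode and gene name files carry identifiers only (unit: other). No source used here gives the genome build or probe set. Counts covered 19059 genes.

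Counts were summed per library for memory-type, naive-type and NK-gated cells (9 sums), and tested with edgeR 4.0.16 (quasi-likelihood, robust, TMM, filterByExpr), with the library as a block because the classes share libraries, with p-values adjusted by Benjamini-Hochberg and a threshold of 0.05. The 16 gating genes and 3 further markers stayed out of the tests and are described only. NK-gated cells had a T-cell receptor sum of 1 or less, and 2 or more UMIs of Ncr1 and Klrb1c, which stayed out of that test. B-gated cells had a B-cell sum of 4 or more and 1 or fewer UMIs each of the T-cell receptor and myeloid sets. SE values come from the log2 fold and its F statistic. Doublets were called with Scrublet in scanpy 1.11.5 (6.06%, 2.30% and 2.08% of barcodes) and kept, except in an alternative. DESeq2 1.42.0 was another. The edgeR script was tested on simulated data.

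The cells and gene lists were chosen with earlier results of these data known. Named genes are, per list, up to 3 with the highest and 3 with the lowest fold that passed the threshold, had 1 direction in all 3 libraries and reached 20 CPM. To these come 10 highest and 10 lowest genes in no list at 50 CPM or more, and an always-named set. The comparison with NK-gated cells names 1 each way per list and 5 outside. Pdcd1, always named, did not pass the count filter. Gzma against naive-type cells, Cd163l1, and the marker genes of other cells fall outside that rule and were chosen after their values were seen. Levels by the gate sum and by Ccl5 are plain CPM. Some genes and 1 planned comparison are not reported here.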

Additional observations from a re-analysis of the deposited data

How the results depend on the processing

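Of the settings tried on the comparison with naive-type cells, DESeq2's Wald test gave 442 genes higher and 179 lower. Without the replicate block, 695 were higher and 353 lower. Pairing cells within 2% of their UMI totals, chosen after seeing the data, gave 457 and 289. Leaving out 1 replicate each gave 408 to 974 higher and 256 to 545 lower. All 961 genes higher kept their sign under the other two scalings and the Wald test, and 914 of 925 tested did so in the paired cells. Named genes kept their side of the threshold in 1052 gene and setting pairs, lost the call in 56, gained it in 4 and turned in 2. Both were Il7r, which was not called: its log2 fold was 0.0791 in the paired cells and from -0.0858 to 0.00527 with 1 replicate left out. Against NK-gated cells, the Wald test gave 1633 higher, and leaving out 1 replicate 1391 to 2346 higher and 1315 to 2226 lower. The share of memory-type cells was 49.6% at a sum of 2 or more, 29.5% at 5 or more, 21.4% with all 3 genes and 27.9% after thinning. The planned match of up to 3 naive-type cells took every one, so it gave no separate value, and the planned match of NK-gated cells left them shallower. Depth limits genes with few UMIs, such as Gzmb and Ifng in naive-type cells.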

Other observations

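The beta chains of the T-cell receptor were compared as shares of all Trbv UMIs, with no test. Trbv14 held 12.9%, 16.1% and 16.2% of them in memory-type cells of replicates 1, 2 and 3 (7308, 2041 and 1474 Trbv UMIs), against 8.83%, 12.4% and 7.76% in naive-type cells. Trbv29 went the other way, at 4.49%, 4.61% and 4.82% against 7.11%, 9.29% and 6.11%. The classes did not overlap for either gene. They also did not overlap for Trbv13-1, at 2.78%, 2.16% and 2.65% against 3.54%, 3.90% and 3.35%. Every other gene of the 22 overlapped. By level in CPM, a measure unlike these shares, 26.6% of the 9155 genes tested had no overlap. Trbv12-2 held the largest share in both classes, 17.7% ± 2.27 and 17.1% ± 1.41, with overlap. Trbv14 and Trbv29 were picked from 22 after their values were seen, and near-identical Trbv copies are uncertain.

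Of 18 immediate-early genes tested against naive-type cells, 6 were higher and 2 lower, beside 10.5% higher and 6.29% lower over all genes. Dusp5, a phosphatase that dampens ERK, rose from 17.4 ± 1.78 to 52.3 ± 6.38 CPM (log2 1.53 ± 0.16), and Ier3 from 22.9 ± 5.25 to 46.9 ± 4.48 CPM (log2 1.12 ± 0.18). Of 21 genes of lipid and glucose metabolism, 4 were higher and 3 lower, to be read beside the same shares over all genes. Aqp9, a glycerol channel, stood at 40.5, 45.4 and 32.1 CPM against 3.82, 2.12 and 0.850 (log2 3.77 ± 0.34), 4.58 without replicate 1 and 3.17 in cells paired by UMI total.

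Cd163l1, a scavenger receptor gene on the list of gamma-delta T markers, was found in 9.31% of memory-type, 0.207% of naive-type and 0.0237% of B-gated cells per library. It stood at 75.9 ± 9.30 plain CPM in members with a sum of 30 or more and at 0 in those with a sum of 3.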
